A study of Mus musculus with 2 samples.

Results

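Neutrophils high in S100a8 and S100a9 were selected by their transcripts from single-cell RNA sequencing of mouse colorectal tumours. A barcode was kept when it had at least 200 detected genes and at most 25% mitochondrial UMIs (unique molecular identifiers, counted transcript molecules). A neutrophil had at least 3 UMIs summed over Csf3r, Cxcr2, Il1r2, Hdc, G0s2 and Retnlg and under 12 UMIs summed over the epithelial genes Epcam, Krt8, Krt18 and Cldn7. It was high when S100a8 and S100a9 together reached 100 UMIs. The rule found 621 barcodes among 26710 deposited and 26153 kept. Of these, 613 belonged to the library labelled STK25 wKO and 8 to the library labelled WT. These 12 genes of the rule chose the members, so their levels below are descriptions only.

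The tumours had been induced by AOM/DSS, that is the carcinogen azoxymethane and the colitis-inducing dextran sulphate sodium, in mice with a global knockout of the kinase gene STK25 and in wild-type mice. The tumours of each genotype were pooled and dissociated with trypsin-EDTA, and the cells were read from the 3′ end of transcripts in droplets. The strain, age, sex and knockout allele are not given in the sources used here, and the series text also mentions a sort for an mCherry signal that was not described further. There was 1 library per genotype, so no value below has a replicate check. Intervals are 95% intervals for counting error only. Those of a ratio of shares instead combine the ends of the intervals of both shares and are not 95% intervals. UMIs of Stk25 occurred in the members of the library labelled STK25 wKO (57 UMIs, 34.7 per 1000000 UMIs outside the 12 rule genes, CPM) and were at 0 in the 8 members of the library labelled WT, whose floor of 3 UMIs is 174 CPM. The genotype is therefore not checked by these counts, and the libraries are called by their labels. Before filtering, they held 14168 barcodes with 66297749 UMIs and 12542 barcodes with 38737373 UMIs.

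Neutrophils are short-lived granulocytes that mature in the bone marrow and enter tissue through the blood. Their granules are filled in sequence during maturation: primary granules with myeloperoxidase and elastase at the promyelocyte stage, specific granules with lactoferrin, cathelicidin and lipocalin later, and gelatinase granules last. S100a8 and S100a9 encode the subunits of calprotectin, a calcium- and zinc-binding protein that fills much of the neutrophil cytosol and is used as a marker of inflammation of the gut. The transcripts of these subunits are abundant in newly released neutrophils, while neutrophils that have stayed in inflamed tissue often carry more cytokine transcripts.

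The members made up 4.42% of kept barcodes in the library labelled STK25 wKO (613 of 13883, 4.08% to 4.77%) and 0.0652% in the library labelled WT (8 of 12270, 0.0282% to 0.128%). The ratio of these shares was 67.7 (31.8 to 169). Without the S100a8 and S100a9 part, the rule found 2197 neutrophils (15.8%) and 293 neutrophils (2.39%). Of these neutrophils, 27.9% were high in the library labelled STK25 wKO (26.0% to 29.8%) and 2.73% in the library labelled WT (1.19% to 5.31%), a ratio of 10.2 (4.90 to 25.2). The neutrophils that were not high, called lower, had a median of 6 UMIs of the 6 neutrophil genes in the library labelled STK25 wKO and 7 in the library labelled WT. They also carried transcripts of other cell types, as given below, so some may be other cells. These shares are of barcodes that passed the rule. Both libraries were pools of tumours, so a share of barcodes cannot tell more neutrophils from fewer cells of other kinds.

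**Figure D1:**
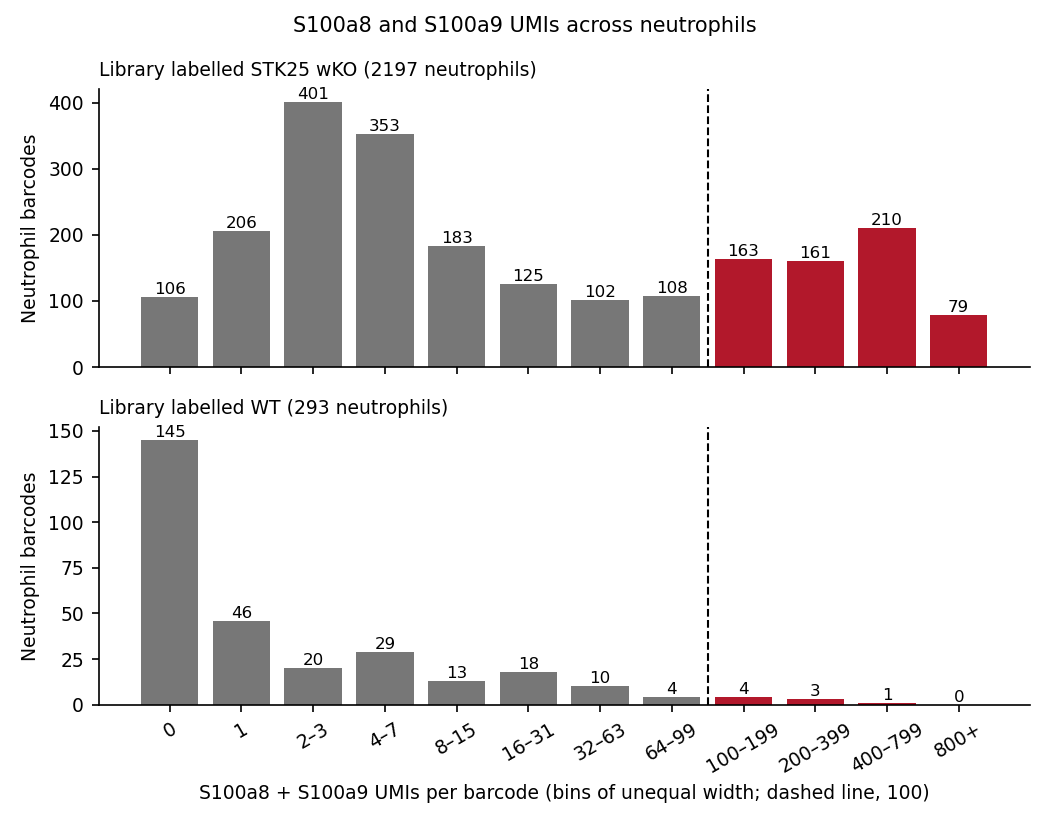
Number of neutrophil barcodes (y axis) by summed S100a8 and S100a9 UMIs per barcode (x axis, bins of unequal width) in the library labelled STK25 wKO (top) and the library labelled WT (bottom), with the members in red to the right of the dashed line at 100 UMIs. The library labelled STK25 wKO has 79 barcodes at 800 UMIs or more and the library labelled WT has 0, and 145 of 293 neutrophils of the library labelled WT have no UMI of either gene.

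The threshold of 100 UMIs fell within a continuous range, as the plot of UMIs per neutrophil shows. In the library labelled STK25 wKO the lowest members had 100, 101 and 102 UMIs of S100a8 and S100a9, and the highest neutrophils below the threshold had 99, 99 and 98. In the library labelled WT the lowest members had 104, 119 and 182 UMIs and the highest below had 94, 94 and 70. S100a8 (ENSMUSG00000056054; chr3:90668978-90670035, plus strand; GRCm38) had a lowest, median and highest count of 15, 147 and 718 UMIs per member in the library labelled STK25 wKO, against 9, 41, 43, 75, 76, 77, 91 and 172 in the 8 members of the library labelled WT. S100a9 (ENSMUSG00000056071; chr3:90692632-90695721, minus strand) had 10, 228 and 1319 UMIs, against 76, 95, 108, 141, 144, 151, 164 and 256. The pair made up 14.1% of all UMIs of the members in the library labelled STK25 wKO and 8.79% in the library labelled WT, and the ratio of S100a9 to S100a8 UMIs was 1.61 and 1.94.

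The raw threshold also depends on depth. The members had a median of 2995 UMIs in the library labelled STK25 wKO and 2358 in the library labelled WT, and the lower neutrophils had 1566.5 and 1686. With every neutrophil thinned to 1000 UMIs, leaving out 242 and 66 shallower barcodes, 50 UMIs or more of S100a8 and S100a9 were found in 32.1% of neutrophils in the library labelled STK25 wKO (30.1% to 34.2%) and in 3.52% in the library labelled WT (1.53% to 6.83%). At 100 of 1000 UMIs the shares were 21.5% (19.7% to 23.4%) and 0.441% (0.0112% to 2.43%). Without thinning, the high share among all neutrophils was 27.9% and 2.73%, so the direction was the same at equal depth. RNA from outside the cells was gauged in B cells, which lack S100a8 and S100a9. They were taken as barcodes outside the neutrophil rule with at least 3 UMIs of B cell marker genes. In the library labelled STK25 wKO they had a median of 2 and a highest count of 25 UMIs of the pair, at a median depth of 1879 UMIs. The pair made up 0.0747% of their UMIs there and 0.00541% in the library labelled WT. At least 3 UMIs of 9 neutrophil markers, the pair included, were found in 48.8% of B cells in the library labelled STK25 wKO and 0.758% in the library labelled WT. The background was thus unequal. Barcodes that met the neutrophil rule were left out of this gauge, so the part of free RNA in the shares of neutrophils was not tested.

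Of the 5 markers given for these cells, S100a8, S100a9, Retnlg and G0s2 are genes of the rule, so their presence was partly fixed by the selection. Ngp, the marker that the rule did not use, had no UMI in 381 of the 613 members of the library labelled STK25 wKO and 1 UMI in all in the 8 members of the library labelled WT. Retnlg, a resistin-like gene of neutrophils, had a lowest, median and highest count of 0, 51 and 404 UMIs per member in the library labelled STK25 wKO, against 0, 5, 9, 12, 13, 25, 32 and 61 UMIs in the library labelled WT. G0s2, an inhibitor of lipolysis, had 0, 23 and 130 UMIs, against 13, 20, 29, 31, 34, 47, 58 and 58. The receptors for G-CSF (Csf3r), for CXC chemokines (Cxcr2) and the decoy receptor for IL-1 (Il1r2) averaged 1.36, 1.05 and 3.47 UMIs per member in the library labelled STK25 wKO and 2.63, 1.25 and 6.88 in the library labelled WT. Together the members, 4.42% of the kept barcodes of the library labelled STK25 wKO, held 80.8% of its S100a8 UMIs, 82.4% of S100a9, 83.2% of Retnlg, 64.6% of G0s2 and 90.7% of Ngp. They held 14.3% of the UMIs of Ly6g, the gene of a common neutrophil surface marker, and with 166 of 11476 Ly6g UMIs in lower neutrophils, most lay in barcodes that were not neutrophils by the rule.

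Markers of most other cell types were lower in the members than in the lower neutrophils. In the library labelled STK25 wKO, the summed level of 9 macrophage markers was 653 CPM in members, 2808 CPM in lower neutrophils and 716 CPM in B cells. The 8 dendritic cell markers summed to 98.1 CPM in members, with 6 of them at 0, and to 1877 CPM in lower neutrophils. The 6 fibroblast markers summed to 184 and 1548 CPM, the 7 B cell markers to 55.4 and 221 CPM, and the 9 T cell markers to 52.4 and 265 CPM. Monocyte markers, 7 genes, summed to 1317 and 1734 CPM, but 39.0% of members and 26.0% of lower neutrophils had at least 3 of their UMIs. Of the 2162 UMIs of these markers in members, 1231 were of Ly6c2 alone. The 6 plasma cell markers summed to 1111 and 908 CPM, but 1362 of their 1824 UMIs in members were Jchain UMIs of a single barcode. At least 3 UMIs of these markers were found in 5.22% of members and 7.07% of lower neutrophils. Epithelial markers, 9 genes, were at 2455 CPM in members, 2928 CPM in lower neutrophils and 2191 CPM in B cells, and Epcam was at 484 CPM in members and 458 CPM in B cells. The lower neutrophils thus carried transcripts of several other cell types, and their part in the differences below was not tested except through a narrower choice of cells. A stricter lower group, chosen after seeing these values, required at least 10 UMIs of the 6 neutrophil genes, under 3 UMIs of H2-Aa, H2-Ab1 and H2-Eb1 together and under 3 UMIs of each B cell, T cell, macrophage, fibroblast and endothelial list. It held 368 of the 1584 lower barcodes, with a median depth of 1426.5 UMIs, against 2995 in members. The limits were on raw counts and were not put on the members. Of these, 23.5% had at least 3 UMIs of the macrophage list. Jchain, a plasma cell gene, had 1496 UMIs in the members of the library labelled STK25 wKO, of which 1362 (91.0%) came from a single barcode. The libraries shared 230 barcode sequences, among them 13 of the 613 members and 0 of the 8.

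The members were not uniform. Genes of specific granules differed widely among them together with Ngp, which encodes neutrophilic granule protein (ENSMUSG00000032484; chr9:110419747-110423012, plus strand). Of the 613 members of the library labelled STK25 wKO, 381 (62.2%) had no UMI of Ngp, 119 had 1 to 4, 58 had 5 to 19 and 55 (8.97%) had 20 or more, up to 378. The split at these counts was made after seeing the data, and no test was made on it.

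Camp, the gene of cathelicidin (ENSMUSG00000038357; chr9:109847379-109849617, minus strand), was at 13, 33.6, 119.7 and 9138 CPM in these 4 groups, from the lowest to the highest Ngp. Ltf, the gene of lactoferrin (ENSMUSG00000032496; chr9:111019271-111042767, plus strand), was at 10.8, 21.4, 104 and 4423 CPM. Both genes lay mostly in the 55 members richest in Ngp, which held 97.5% of the Camp UMIs and 96.0% of the Ltf UMIs of all 613. Lcn2, which encodes the iron-scavenging lipocalin, was spread more widely, at 3323, 7696, 9659.6 and 19602 CPM. Cd177, a neutrophil surface glycoprotein gene, was at 116, 275, 505 and 1210.3 CPM, and Anxa1, the gene of annexin A1, at 595, 1178, 1504 and 3217 CPM. Cebpe, the transcription factor of specific granule genes, had 3, 1, 2 and 14 UMIs, or 3.25, 3.05, 10.4 and 70.6 CPM.

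Several cytokine and activation genes, but not all, were lower in the groups with more Ngp. Cxcl2, a chemokine that recruits neutrophils, was at 36049.5, 33957, 26252 and 19698 CPM. Il1b, the gene of interleukin-1β, was at 9299, 7657, 5756 and 3838 CPM. Ptgs2, which encodes cyclooxygenase-2, was at 1029, 638, 468 and 262 CPM, Cd274, the gene of PD-L1, at 404, 263, 255 and 106 CPM, and Csf1, a growth factor gene for macrophages, at 259.8, 180.1, 83.3 and 65.6 CPM. Osm, the gene of the cytokine oncostatin M, was instead highest in the members richest in Ngp, at 950.5, 1175, 952 and 1488 CPM, and Ccl3, a chemokine gene, had no steady order, at 1040.3, 1307, 1025 and 837 CPM. These genes were picked by their values and do not stand for all cytokine or activation genes. Cd14, the lipopolysaccharide co-receptor, was at 4959, 5779, 5444 and 5588 CPM and Slpi, a protease inhibitor gene, at 5825, 6533, 6084 and 5033 CPM, both without such an order. The share of S100a8 and S100a9 had a median of 10.6%, 15.7%, 17.8% and 23.1% of UMIs in these groups, and the median depth was 2621, 3383, 3884.5 and 4845 UMIs.

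**Figure D2:**
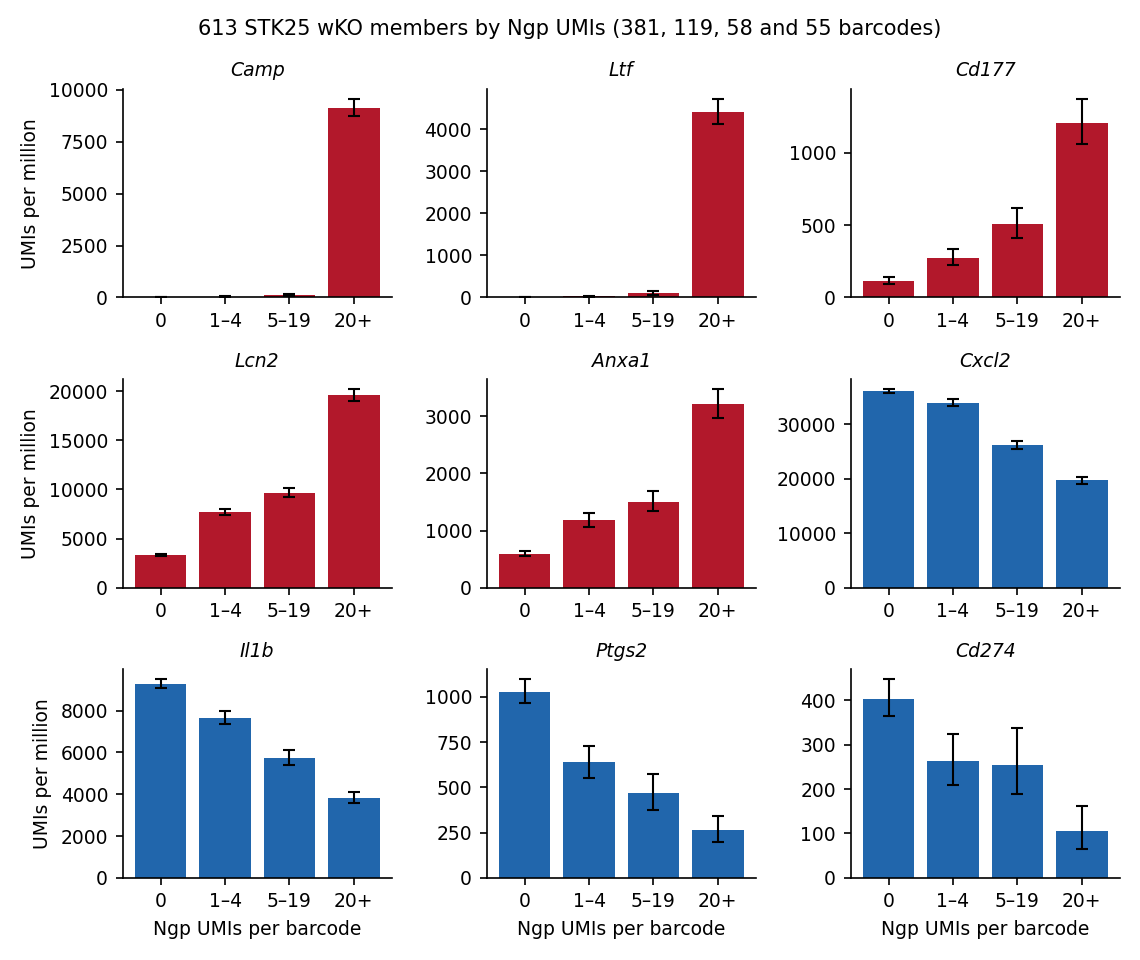
Level of 9 genes in CPM (y axis, from 0) in members of the library labelled STK25 wKO with 0, 1 to 4, 5 to 19 and 20 or more Ngp UMIs (x axis; 381, 119, 58 and 55 barcodes). Bars are pooled levels and error bars 95% Poisson intervals; granule and related genes (red) are highest in the last group, and the cytokine and surface genes (blue) are lowest there.

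Of the 7 listed primary granule genes, which belong to earlier maturation, 5 were at or near 0. Mpo and Elane, which encode myeloperoxidase and neutrophil elastase of primary granules, had 2 UMIs each over all 613 members, all in the group without Ngp. Ctsg, Ms4a3 and Bpi had 0 UMIs in 1641752, below the floor of 3 UMIs at 1.83 CPM. Prtn3, the gene of proteinase 3, had 24 UMIs, at 14.6 CPM in members and 31.8 CPM in B cells. Serpinb1a, an inhibitor of neutrophil proteases, had 218 UMIs, at 133 CPM in members and 123 CPM in B cells, and it held most of the list's summed level. Of the cell cycle genes, Mki67 was at 30.3, 21.4, 57.2 and 20.2 CPM and Top2a at 19.5, 30.5, 10.4 and 5.04 CPM, with 4 and 1 UMIs in the group richest in Ngp. Hmgb2, a chromatin gene often high in dividing cells, was at 530.4, 525, 536 and 741 CPM. In the whole library labelled STK25 wKO, 58 kept barcodes had 20 or more UMIs of Ngp (0.418%, 0.317% to 0.540%), of which 55 were members, 2 were lower neutrophils and 1 was neither. In the library labelled WT there were 0 of 12270, with an upper end of the interval at 0.0301%, and the whole of that library had 1 UMI of Ngp, in a member.

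Because Ngp, Camp and Ltf were highest in the same members, the 250 bases before the RefSeq transcription start (GRCm38.p6) are printed for these 3 genes and, as a gene of the selection, for S100a9. The RefSeq starts of Ngp, Ltf and Camp lie inside the GENCODE gene spans given above, since the annotations place them differently. Capitals mark matches to TTGCNNAA on either strand, a form of the motif bound by C/EBP factors, which regulate granule genes during neutrophil maturation. The motif occurred in 9.56% of the 32851 RefSeq windows of the same length. Ngp had 2 matches, Ltf and S100a9 1 each, and Camp and S100a8 (not printed) 0. A match is a description of these letters and not evidence of binding.
Ngp (chr9:110419558-110419807, plus strand): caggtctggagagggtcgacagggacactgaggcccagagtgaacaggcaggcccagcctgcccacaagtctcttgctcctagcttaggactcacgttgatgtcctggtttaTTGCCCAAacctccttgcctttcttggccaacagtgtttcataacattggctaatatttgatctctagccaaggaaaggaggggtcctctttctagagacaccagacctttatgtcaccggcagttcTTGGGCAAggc
Ltf (chr9:111019042-111019291, plus strand): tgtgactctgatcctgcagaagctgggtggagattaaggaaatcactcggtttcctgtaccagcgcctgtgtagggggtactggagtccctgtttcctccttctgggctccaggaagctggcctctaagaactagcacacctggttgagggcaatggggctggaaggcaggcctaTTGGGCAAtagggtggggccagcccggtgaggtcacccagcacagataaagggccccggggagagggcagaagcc
Camp (chr9:109849457-109849706, minus strand): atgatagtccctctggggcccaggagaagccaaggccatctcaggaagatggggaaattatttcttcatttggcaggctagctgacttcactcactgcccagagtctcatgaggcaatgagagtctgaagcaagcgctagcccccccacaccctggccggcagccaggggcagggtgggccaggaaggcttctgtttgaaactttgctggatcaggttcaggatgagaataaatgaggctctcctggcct
S100a9 (chr3:90695722-90695971, minus strand): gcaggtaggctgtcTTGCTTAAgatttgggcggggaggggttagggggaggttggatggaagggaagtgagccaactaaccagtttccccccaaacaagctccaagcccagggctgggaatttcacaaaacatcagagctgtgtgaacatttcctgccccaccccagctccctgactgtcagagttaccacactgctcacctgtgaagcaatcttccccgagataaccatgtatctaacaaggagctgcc

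The next comparison asked how the members differed from the lower neutrophils of the same library. UMIs were summed over barcodes and scaled to CPM, which leave out the rule genes, because S100a8 and S100a9 alone took 14.1% of the members' UMIs. Specific granule genes were higher in the members almost throughout. Of the 12 listed genes, 11 had a log2 ratio of 1 or more and 0 had −1 or less, with a median of 3.06. The list also holds Ltb4r1, a leukotriene B4 receptor gene, which does not encode a granule protein. Among all 11889 genes with at least 20 UMIs, 4.03% had a log2 ratio of 1 or more and 34.9% had −1 or less, with a median of −0.71. Against the stricter lower group, 12 of 12 were at 1 or more, where 6.14% of 7800 genes were and 11% were at −1 or less, with a median of −0.27 over all genes. A log2 ratio of 1 was used as a mark of size, not of significance.

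Camp was at 1132 CPM (1081 to 1184) in members and 6.13 CPM (3.88 to 9.19) in lower neutrophils, a log2 ratio of 7.53 (6.94 to 8.19). Ngp was at 3659.5 CPM (3568 to 3753) and 41.8 CPM (35.5 to 48.9), with a log2 ratio of 6.45 (6.22 to 6.69). In the stricter group Camp was at 3.79 CPM, from 2 UMIs, and Ngp at 114 CPM, with log2 ratios of 8.22 (6.37 to 11.27) and 5.01 (4.64 to 5.40). B cells, as a gauge of free RNA, had 13.9 CPM of Ngp and 7.94 CPM of Camp, so Camp in the lower neutrophils did not exceed that background. Without the 55 members richest in Ngp, the log2 ratios of Camp and Ngp were 2.38 and 3.71. Lcn2 was at 6904 CPM (6777 to 7032) and 273 CPM (257 to 291), with 759 CPM in the stricter group. Ltf had log2 ratios of 4.21 (3.93 to 4.50) against all lower neutrophils and 3.11 (2.62 to 3.65) against the stricter group, but without the 55 members richest in Ngp the ratio against all was −0.23, so its direction rested on these 55 barcodes. Ltf was also read outside neutrophils: the whole library labelled WT had 4110 UMIs of Ltf, 0 of them in members and 13 in lower neutrophils. Mmp8, the collagenase of specific granules, had 538 CPM (504 to 575) in members and 32.5 CPM (27.0 to 38.8) in lower neutrophils, with 90.9 CPM in the stricter group. Pglyrp1, a peptidoglycan recognition protein gene, had 3251, 617 and 1236 CPM. Chil3, a chitinase-like gene also found in macrophages, was the exception, at 247 CPM in members, 177 CPM in all lower neutrophils and 9.46 CPM in the stricter group.

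Lists of other neutrophil genes were less uniform. Over all genes, 4.03% had a log2 ratio of 1 or more and 34.9% had −1 or less against all lower neutrophils. Against the stricter group these shares were 6.14% and 11%. Of 10 gelatinase and secretory granule genes, 5 were at 1 or more and 0 at −1 or less, and 3 and 0 against the stricter group. Of 14 maturity genes, 8 were at 1 or more and 1 at −1 or less, and 5 and 3 against the stricter group. Several single genes were higher in the members. Ly6g was at 1001 CPM (953 to 1050.3) in members and 44.2 CPM (37.7 to 51.5) in lower neutrophils, and Wfdc21, a small secreted protein gene, at 1683 CPM (1621 to 1747) and 51.9 CPM (44.9 to 59.8). In the stricter group they were at 136 and 174 CPM. Ifitm6, of the interferon-induced transmembrane family, was at 2216 CPM (2144 to 2289) and 60.7 CPM (53.1 to 69.1), with 123 CPM in the stricter group, and Prok2, the gene of a prokineticin, at 300.3, 12.3 and 53.0 CPM. Of 9 stefin and protease inhibitor genes counted, 7 had a log2 ratio of 1 or more, with a median of 3.78, and 7 of 9 did so against the stricter group. Stfa1, Stfa2l1, Cstdc4 and Cstdc5 encode stefin A-like cysteine protease inhibitors and are near-identical copies, so reads may be split among them. Their log2 ratios against all lower neutrophils were 5.08, 3.78, 3.54 and 6.03, and those of Stfa1 and Stfa2l1 against the stricter group 3.83 and 1.72. Wfdc17, a protease inhibitor-like gene of activated myeloid cells, was at 6971 CPM (6844 to 7100.1) in members and 423 CPM (402 to 444) in lower neutrophils, with 1104 CPM in the stricter group. Alox5ap, which presents arachidonic acid to 5-lipoxygenase, was at 3259 CPM (3172 to 3347) and 389.9 CPM (370.2 to 410.4), with 602 CPM in the stricter group. Among other S100 genes, S100a6 and S100a11 were higher in members, with log2 ratios of 1.76 and 2.17 against all lower neutrophils and 1.29 and 1.49 against the stricter group. S100a4 was at −2.47 and −0.0058 (−0.73 to 0.78).

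**Figure D3:**
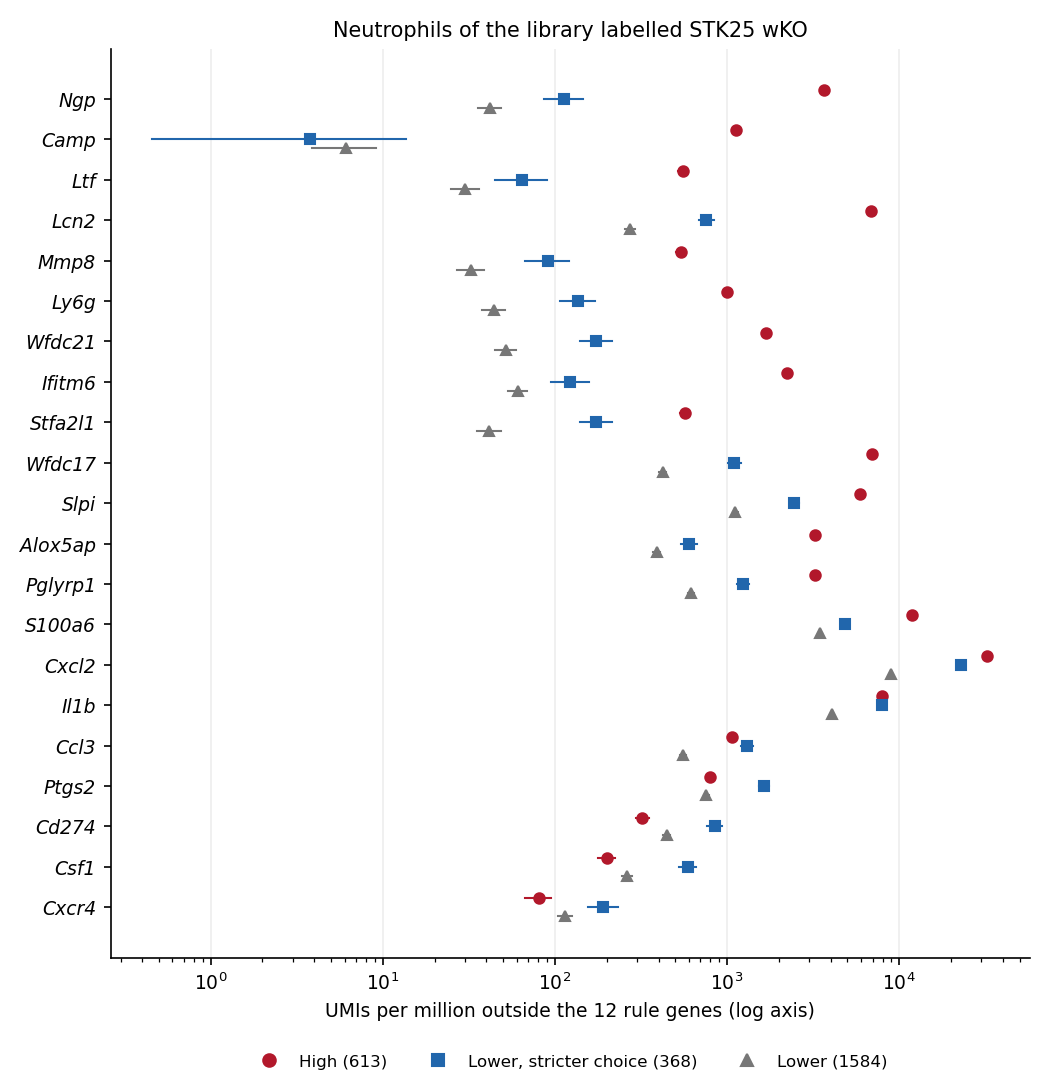
Pooled levels of 21 genes in the library labelled STK25 wKO, in CPM (x axis, log scale), for members (red circles, 613), the stricter lower group (blue squares, 368) and all lower neutrophils (grey triangles, 1584). Lines are 95% Poisson intervals; granule genes lie to the right in the members, while Ptgs2, Cd274, Csf1 and Cxcr4 lie furthest right in the stricter lower group.

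Cytokines and receptors depended on which lower neutrophils were used. Of 21 cytokine and chemokine genes, 5 were at a log2 ratio of 1 or more and 4 at −1 or less against all lower neutrophils, but 0 and 4 of 18 against the stricter group, where 34.9% and 11% of all genes were at −1 or less. Cxcl2 was at 32510.4 CPM (32235 to 32787) in members, 8972 CPM in all lower neutrophils and 22905 CPM in the stricter group. Il1b was at 7897, 4060.2 and 7996 CPM, so its log2 ratio was 0.96 against all and −0.018 (−0.068 to 0.032) against the stricter group. Ccl3 and Ccl4, chemokines for monocytes and lymphocytes, had log2 ratios of 0.94 and 0.81 against all lower neutrophils and −0.29 and −0.22 against the stricter group, a change of sign. Of 20 Fc and pattern receptor genes, 15 were at 1 or more against all lower neutrophils and 1 against the stricter group. Over all genes, 4.03% and 6.14% were at 1 or more, so the receptor count against the stricter group was near the share over all genes. Trem1, an amplifying receptor of neutrophils, had log2 ratios of 2.07 and 0.51, and Clec4e, the receptor Mincle, 1.35 and −0.02.

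Several genes were lower in members than in the stricter group. Cd274 was at 322 CPM (295 to 351) in members and 846 CPM (769.5 to 928) in the stricter group, a log2 ratio of −1.39 (−1.58 to −1.21). Ptgs2 was at 793 CPM (751 to 837) and 1649 CPM (1541 to 1762), Csf1 at 199.8 CPM (179 to 223) and 591 CPM (527 to 659.9), and Il23a, a subunit gene of interleukin-23, at 108 CPM (93.1 to 126) and 409 CPM (356 to 467). Cxcr4, the receptor that retains and returns neutrophils to bone marrow, was at 80.4 CPM (67.3 to 95.3) and 191 CPM (156 to 232). Icam1, an adhesion molecule gene, had a log2 ratio of −1.72 (−2.04 to −1.40), and Nfkb1, which encodes an NF-κB subunit, −1.36 (−1.58 to −1.13). Of 20 NF-κB response genes, 2 were at 1 or more and 4 at −1 or less against all lower neutrophils, and 0 and 4 against the stricter group. Over all genes, 4.03% and 6.14% were at 1 or more, and 34.9% and 11% at −1 or less. Among the lowest log2 ratios against all lower neutrophils were those of Retnla, at −6.10 (−8.38 to −4.54), and Dcstamp, at −5.64 (−7.92 to −4.08). Retnla and Dcstamp are known from macrophages, whose markers were also higher in the lower neutrophils, and they had 3 UMIs each in the members.

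Interferon-response genes differed among themselves. Of 22 genes, 11 were at 1 or more and 2 at −1 or less against all lower neutrophils, and 5 and 3 of 20 against the stricter group. Over all genes, 4.03% were at 1 or more and 34.9% at −1 or less against all lower neutrophils, and 6.14% and 11% against the stricter group. The transmembrane genes led: Ifitm1 was at 5847 CPM (5731 to 5966) in members and 1547 CPM (1442 to 1656) in the stricter group, Ifitm2 at 4100.5 and 1531 CPM and Ifitm3 at 2506 and 748 CPM. Isg15, a ubiquitin-like interferon-induced gene, was at 327 CPM (300.0 to 356) and 327 CPM (281 to 380.1), and Rsad2, which encodes viperin, at 49.3 and 58.7 CPM. Of 25 glycolysis and hypoxia genes, 4 were at 1 or more against either lower group, and Gapdh was at 3300.1, 2042 and 1518 CPM in members, all lower neutrophils and the stricter group. Siglecf, a gene of long-lived tumour neutrophils in other mouse models, was at 2.44 CPM in members (4 UMIs) and 2.66 CPM in lower neutrophils (10 UMIs).

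Divided by their share of S100a8 and S100a9 instead of the count, the neutrophils of the library labelled STK25 wKO fell into bands of under 0.5%, 0.5 to 2%, 2 to 5%, 5 to 10% and at least 10% of UMIs, with 1033, 344, 179, 219 and 422 barcodes. The first bands hold almost no members (0 and 2), and the last holds 420. Lcn2 was at 142, 603, 1162, 2037 and 9202 CPM in these bands, and Wfdc21 at 22.8, 74.9, 286, 561 and 2233 CPM. Ngp was at 17.0, 82.4, 311, 117 and 5284 CPM and Camp at 5.10, 3.75, 25.7, 11 and 1654 CPM, so the highest level of both lay in the last band. Cxcl2 was at 5564, 14107, 28156, 38831 and 31943 CPM, and Il1b at 3294, 4812, 9172, 9449.8 and 7567 CPM, both highest in the fourth band. Cd274 was at 421, 547, 459.8, 444 and 279.9 CPM and Ptgs2 at 618, 1113, 1276, 1301 and 626 CPM. H2-Ab1, an MHC class II gene, was at 2225, 225, 137, 177 and 71.5 CPM and Apoe at 1706, 672, 431, 379.9 and 283 CPM, both highest in the first band. H2-Ab1 is itself among the dendritic cell markers and Apoe among the macrophage markers, and the marker lists were not summed by band. For correlations, the UMIs of each gene were divided by the total UMIs of the barcode. Over the 613 members, the Spearman correlation of the S100a8 and S100a9 share was 0.67 with Lcn2 and 0.56 with Ngp. It was 0.13 with G0s2, −0.25 with Cxcl2 and −0.32 with Il1b. These correlations are across cells of 1 library, and the same share had 0.36 with total UMIs. The totals include S100a8 and S100a9, so a larger share of the pair leaves less for other genes. Negative values can be partly built in by this, and no correlation was made with totals that leave out the rule genes. The pair and G0s2 are also rule genes, and the count of the pair selected the members.

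**Figure D4:**
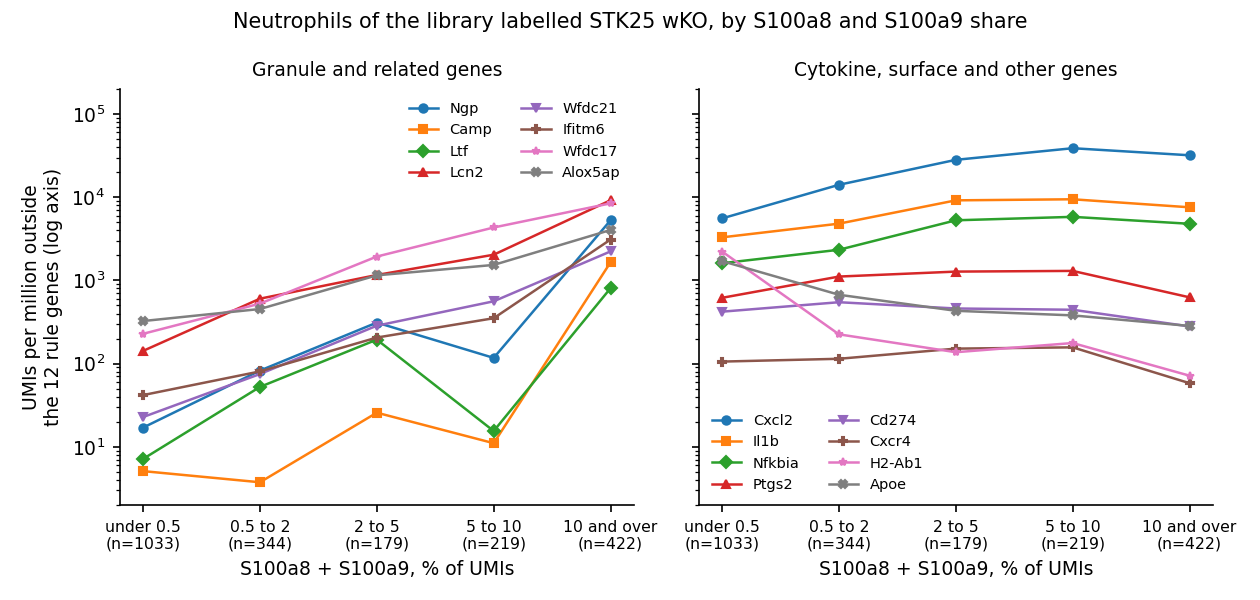
Level in CPM (y axis, log scale) of 16 genes across bands of the S100a8 and S100a9 share of UMIs (x axis, low to high, with the number of barcodes) in neutrophils of the library labelled STK25 wKO. Lcn2, Wfdc21, Ifitm6 and Wfdc17 (left) increase through every band, while Ngp, Camp and Ltf have most of their level in the last, and H2-Ab1 and Apoe (right) are highest in the first.

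The comparison of genotypes within the members asked whether neutrophils high in S100a8 and S100a9 had the same transcripts in both libraries. It rests on 8 barcodes of the library labelled WT with 17229 UMIs outside the rule genes, against 1641752 in the library labelled STK25 wKO. Specific granule genes were higher in the library labelled STK25 wKO. Summed over the list of 12, they were at 19345 CPM in the library labelled STK25 wKO and 5166 CPM in the library labelled WT. Of 10 that could be counted, 7 had a log2 ratio of 1 or more and 0 had −1 or less, with a median of 1.88. Over all 3198 genes counted, 6.04% were at 1 or more and 36.1% at −1 or less, with a median of −0.63. A gene with no UMI in the 8 members was counted only where the floor of 3 UMIs gave a direction, which moves the median over all genes down and the count of the granule list up, and no weight was put on either. The 2 genes not counted, Olfm4 and Ltb4r1, had 74 and 195 UMIs in the library labelled STK25 wKO and 0 in the library labelled WT.

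Ngp was at 3659.5 CPM (3568 to 3753) in the library labelled STK25 wKO and 58.0 CPM (1.47 to 323) in the library labelled WT, a log2 ratio of 5.98 (3.50 to 11.28) from 6008 UMIs and 1 UMI. Camp had 1132 CPM and 0 UMIs. With the 0 set at the floor of 3 UMIs, it was at least 6.50-fold higher, a log2 ratio of 2.70, and the lower end of its interval was 2.40. This rested on few members: 77 of the 613 had a UMI of Camp, and the 55 richest in Ngp held 97.5% of its UMIs. In members with 5 to 19 Ngp UMIs Camp was at 119.7 CPM, below the floor of 174 CPM, and it was lower still with fewer. Without the 55, the comparison therefore gives no direction for Camp. Without the 55 members richest in Ngp, the log2 ratio of Ngp was 3.23 and that of Lcn2 1.67. Lcn2 had a lowest, median and highest count of 0, 10 and 170 UMIs per member in the library labelled STK25 wKO, against 0, 0, 2, 2, 3, 5, 6 and 10 in the library labelled WT. Its level was 6904 CPM (6777 to 7032) and 1625 CPM (1079.9 to 2349), a log2 ratio of 2.09 (1.55 to 2.68), although the per-cell counts overlapped. Ifitm6 had 0, 2 and 56 UMIs, against 0, 0, 0, 0, 0, 0, 0 and 2, with a log2 ratio of 4.25 (2.40 to 7.30). Wfdc17 had 0, 13 and 150 UMIs, against 0, 0, 0, 0, 1, 6, 7 and 9, with a log2 ratio of 2.38 (1.80 to 3.04), and Ifitm1 a log2 ratio of 2.33 (1.70 to 3.04). Ly6g, Mmp8 and Fpr1, a formyl peptide receptor gene, had 2, 1 and 1 UMIs in the library labelled WT and log2 ratios of 3.11 (1.25 to 6.15), 3.21 (0.73 to 8.52) and 3.36 (0.88 to 8.67).

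**Figure D5:**
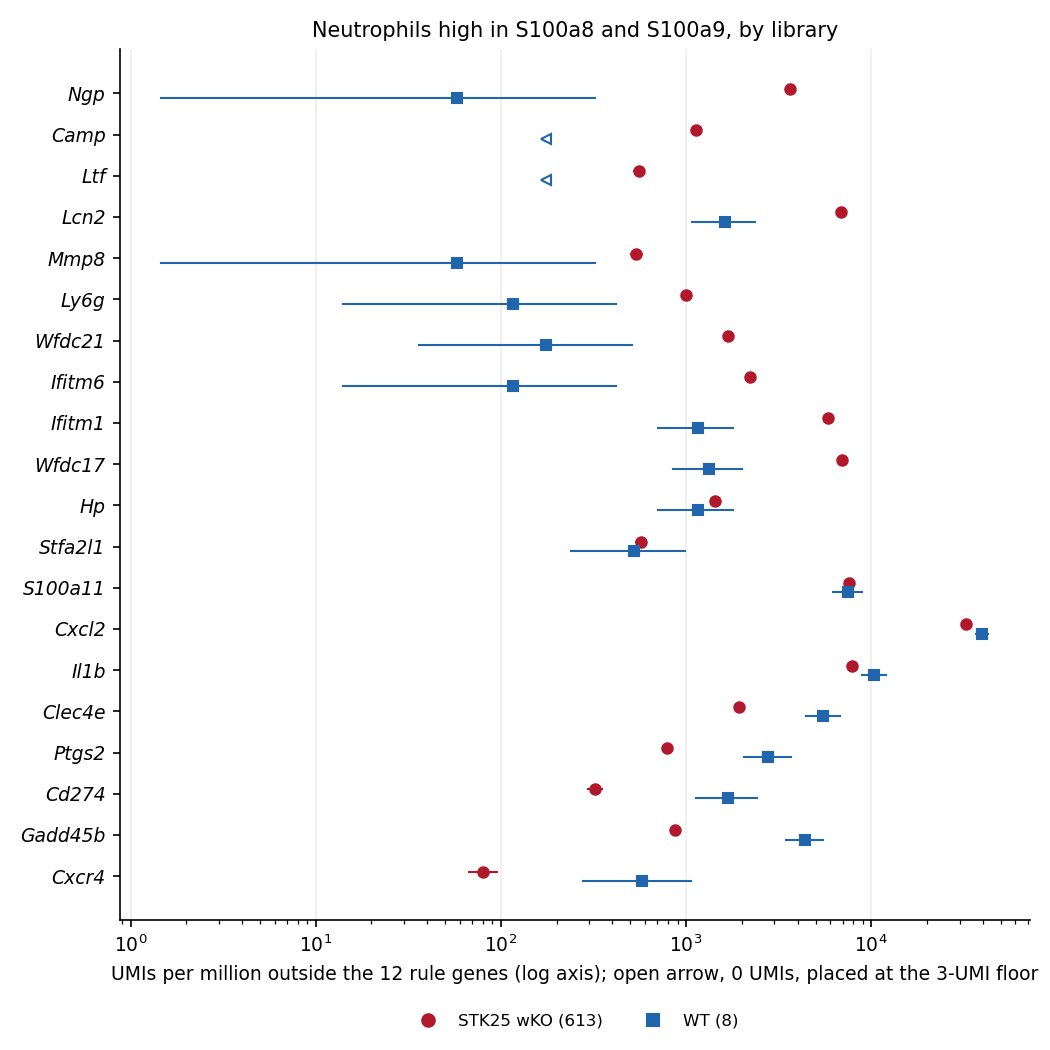
Pooled levels of 20 genes in members of the library labelled STK25 wKO (red circles, 613) and the library labelled WT (blue squares, 8), in CPM (x axis, log scale), with 95% Poisson intervals as lines. Open arrows mark genes with 0 UMIs, placed at the floor of 174 CPM; Ngp, Lcn2, Ifitm6 and Wfdc17 are further right in the library labelled STK25 wKO, and Clec4e, Ptgs2, Cd274 and Gadd45b in the library labelled WT.

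Other genes were higher in the library labelled WT. Cd274 had a lowest, median and highest count of 0, 0 and 14 UMIs per member in the library labelled STK25 wKO, against 0, 0, 0, 1, 2, 3, 10 and 13 in the library labelled WT, at 322 CPM (295 to 351) and 1683 CPM (1127 to 2417). The log2 ratio was −2.39 (−2.92 to −1.79), from 29 UMIs in the library labelled WT. Ptgs2 had 0, 1 and 24 UMIs, against 1, 1, 2, 4, 4, 10, 11 and 15, with a log2 ratio of −1.81 (−2.23 to −1.37). Gadd45b, a stress-response gene, had 0, 1 and 19 UMIs, against 3, 3, 4, 6, 9, 11, 18 and 22, with a log2 ratio of −2.34 (−2.67 to −1.98), and all 8 WT barcodes were above the median of the 613. Clec4e had 0, 4 and 29 UMIs, against 1, 3, 4, 5, 9, 15, 28 and 30, with a log2 ratio of −1.51 (−1.80 to −1.20). Cxcr4 was at 80.4 CPM (67.3 to 95.3) and 580.4 CPM (278 to 1067), a log2 ratio of −2.85 (−3.78 to −1.76) from 10 UMIs in the library labelled WT. The other leading genes lower in the library labelled STK25 wKO, among them Klf10, Ccl5, Cish and Dusp2, rested on 4 to 9 UMIs in the library labelled WT.

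Cxcl2 and Il1b differed less. Cxcl2 had a lowest, median and highest count of 0, 72 and 351 UMIs per member in the library labelled STK25 wKO, against 0, 21, 41, 59, 61, 157, 168 and 179 in the library labelled WT, a log2 ratio of −0.29 (−0.40 to −0.18). Il1b had 0, 20 and 101 UMIs, against 9, 17, 18, 20, 21, 26, 27 and 41, with −0.40 (−0.61 to −0.17). The counts of both genes overlapped, and the ratios were above 0, at 0.20 and 0.081, with a threshold of 50 UMIs for S100a8 and S100a9. Hp, the gene of haptoglobin, differed by 0.30 (−0.33 to 1.02), S100a11 by 0.015 (−0.24 to 0.28) and Stfa2l1 by 0.13 (−0.80 to 1.26), all with intervals that include 0. Of 14 cytokine genes counted, 0 were at 1 or more and 5 at −1 or less, and of 18 NF-κB response genes 1 and 6, shares at −1 or less that are near the 36.1% over all genes. With under 3 epithelial UMIs allowed, the members numbered 261 for STK25 wKO and 2 for WT, and the log2 ratios of Cd274, Nfkbia and Clec4e were then above 0.

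Within the library labelled WT, the 8 members stood against 285 lower neutrophils. Only 4 of the 12 specific granule genes could be counted (Lcn2, Hp, Pglyrp1 and Anxa1), and all 4 were at a log2 ratio of 1 or more. Over all 3107 genes counted, 23.8% were at 1 or more and 12.4% at −1 or less, with a median of 0.24. Lcn2 was at 1625 CPM (1079.9 to 2349) in members and 96.9 CPM (76.5 to 121) in lower neutrophils, and Hp at 1161 CPM (709 to 1793) and 107 CPM (85.4 to 132). Of the 21 cytokine genes, 15 could be counted and 13 of these were at 1 or more. A gene with no UMI in the 8 members was counted only where lower neutrophils exceeded the floor of 174 CPM. The counts at 1 or more in these lists were thus partly set by this filter, and no weight was put on them. Cxcl2 was at 39817 CPM (36892 to 42911) in members, 3709.7 CPM (3577 to 3846) in lower neutrophils and 12497 CPM in the stricter lower group of this library, and Il1b at 10389.5 CPM (8923 to 12028), 2761 CPM (2647 to 2879) and 7757 CPM. With that stricter group, 143 genes in place of 738 were at 1 or more in this library. Hcar2, a metabolite receptor gene, was at 2844 CPM (2104 to 3760.0) and 191 CPM (162 to 224). Apoe and the MHC class II gene H2-Aa were lower in members, with 1 and 2 UMIs there and 1421 and 1821 CPM in lower neutrophils, and log2 ratios of −4.61 (−9.92 to −2.13) and −3.97 (−7.02 to −2.12). In this library macrophage markers were at 174 CPM in members and 3014 CPM in lower neutrophils, while epithelial markers were at 2728 and 1593 CPM and plasma cell markers at 638 and 248 CPM, and their part was not tested.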

How the data were processed

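Single-cell RNA sequencing was performed on pooled AOM/DSS tumours of STK25 wKO and WT mice, 1 library each, on the 10x Chromium 3′ platform. The authors deposited unnormalized UMI counts for every gene and barcode, made with Cell Ranger 7.1.0 against mm10, so barcodes with few UMIs had already been removed. Groups followed the GEO labels. Members and gene lists were chosen with earlier results of these data known. UMIs were summed over barcodes and divided by the UMIs outside the 12 genes of the rule (CPM, counts per 1000000). Genes needed 20 UMIs over both groups. CPM have exact Poisson intervals, shares Clopper-Pearson intervals and log2 ratios exact conditional binomial intervals, all at 95% and for counting error only. Intervals of a ratio of shares combine the ends of the intervals of both shares and are not 95% intervals. A gene at 0 in 1 group was set at 3 UMIs. With 1 library per genotype there was no test, p-value or count model.

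Named were the genes of the rule, the 10 genes with the highest and the 10 with the lowest log2 ratio in each comparison among genes with at least 50 UMIs and 50 CPM in a group (mitochondrial, ribosomal protein, predicted, immunoglobulin and haemoglobin genes left out), and the 4 most abundant genes of each list. Other named genes were chosen after their values were seen. The stricter lower group, the groups by Ngp and the comparisons that use them were also chosen after seeing the data. A gene that the naming rule selects is not reported here. Symbols on several rows were read from the first. Doublets were not removed and no doublet caller was run. Alternatives varied the thresholds, quality filters, minimum UMIs per gene, CPM denominator and depth (thinning to 1000 UMIs, seed 0). Python 3.11.15, numpy 2.4.6, scipy 1.17.1, pandas 2.3.3 and matplotlib 3.10.9 were used, and the ratios were checked on simulated data. Gene positions came from GENCODE on GRCm38 (mm10) and promoter sequences from RefSeq on GRCm38.p6.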

Additional observations from a re-analysis of the deposited data

Results flagged for a closer look

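The log2 ratio of members over lower neutrophils had opposite signs in the libraries, with counting intervals on either side of 0, for 7 genes named here. None of these differences was tested, since there was 1 library per genotype. Cd274 was at −0.47 (−0.61 to −0.33) in the library labelled STK25 wKO and 2.11 (1.51 to 2.67) in the library labelled WT. In the library labelled WT it became −0.70 with under 3 epithelial UMIs, which left 2 members there. With a threshold of 200 UMIs, which left 4 members there, it was 0.23. The opposite sign was thus lost in a setting with 2 barcodes, and the reason was not tested. The other 6 genes rested on 4 to 13 UMIs in the members of the library labelled WT. Cxcr4 was at −0.51 (−0.80 to −0.22) in the library labelled STK25 wKO and 2.46 (1.35 to 3.41) in the library labelled WT. Ccl5, a chemokine gene of T cells and NK cells, was at −2.06 (−2.53 to −1.63) in the library labelled STK25 wKO and 3.26 (1.52 to 4.68) in the library labelled WT. Dusp2, a phosphatase gene, was at −1.13 (−1.45 to −0.82) in the library labelled STK25 wKO and 1.85 (0.69 to 2.83) in the library labelled WT. Anapc13, a subunit gene of the anaphase-promoting complex, was at −0.65 (−1.07 to −0.25) in the library labelled STK25 wKO and 2.72 (1.01 to 4.08) in the library labelled WT. Rab1b, a vesicle transport gene, was at −0.57 (−1.03 to −0.12) in the library labelled STK25 wKO and 2.57 (0.61 to 4.07) in the library labelled WT. Lgals4, an epithelial galectin gene, was at −0.19 (−0.30 to −0.077) in the library labelled STK25 wKO and 1.23 (0.30 to 2.03) in the library labelled WT.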

How the results depend on the processing

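The share of members in the library labelled STK25 wKO, 4.42% as reported, was 5.46% with a threshold of 50 UMIs of S100a8 and S100a9, 3.24% with 200, 5.48% where 500 genes were required and mitochondrial UMIs were held to 10%, 1.88% with under 3 epithelial UMIs, 3.25% without barcodes with markers of other cells and 4.02% without the members with at least 20 Ngp UMIs. In the library labelled WT, 0.0652% as reported, it was 0.130% with 50 UMIs and 0.0163% with under 3 epithelial UMIs. Between the libraries, 193 genes had a log2 ratio of 1 or more, against 379 with a threshold of 50 UMIs, 106 with 200, 95 thinned to 1000 UMIs and 76 with under 3 epithelial UMIs. At −1 or less there were 1154 genes, against 507 with at least 50 UMIs per gene, 647 thinned and 653 with under 3 epithelial UMIs. Between members and lower neutrophils of the library labelled STK25 wKO, 479 genes were at 1 or more, against 1202 with at least 1 UMI per gene. At −1 or less there were 4151, against 2112 with at least 6 UMIs of the neutrophil genes, 2697 thinned and 856 with the stricter lower group. In the library labelled WT, 738 genes were at 1 or more, against 1351 with at least 1 and 330 with at least 50 UMIs per gene, 445 with at least 6 UMIs of the neutrophil genes, 327 without barcodes with markers of other cells, 295 thinned and 143 with the stricter lower group. At −1 or less there were 385, against 941 with a threshold of 50 UMIs, 132 with 200, 122 thinned, 76 with under 3 epithelial UMIs and 187 with the stricter lower group. Of the gene lists in the library labelled STK25 wKO, cytokine genes at 1 or more numbered 5, 8 with a threshold of 50 UMIs and 0 with the stricter lower group. Fc and pattern receptors numbered 15, 9 with at least 6 UMIs of the neutrophil genes and 1 with the stricter lower group. Interferon genes numbered 11, 7 without barcodes with markers of other cells, 7 with CPM over all UMIs and 5 with the stricter lower group.

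A change of sign was recorded only for log2 ratios whose interval, as reported, excluded 0. Others are not listed, such as Ptgs2 over lower neutrophils in the library labelled STK25 wKO. It was at 0.066 as reported and −0.21 with a threshold of 200 UMIs. The recorded changes between the libraries were Cxcl2 (0.20) and Il1b (0.081) with a threshold of 50 UMIs. With under 3 epithelial UMIs they were Cd274 (0.23), Nfkbia (0.18) and Clec4e (0.72). Against lower neutrophils they were Cd274 in the library labelled WT (−0.70) with under 3 epithelial UMIs, and in the library labelled STK25 wKO Il1b (−0.018), Ccl3 (−0.29) and Ccl4 (−0.22) with the stricter lower group and Ltf (−0.23) without the members with at least 20 Ngp UMIs. Of the other alternative values, 157 shares and counts and 488 log2 ratios moved by less than their limits (1.5 times for counts, the counting interval otherwise), and 239 log2 ratios moved further. Fewer barcodes or genes enter several of these settings, and beyond that the cause was not tested. The stricter lower group and the setting without Ngp-rich members were chosen after seeing the data. No paired analysis was possible because each genotype had 1 library and the labels give no replicate numbers. The 17229 UMIs of the 8 members of the library labelled WT put its floor of 3 UMIs at 174 CPM, so a gene at 0 there is limited only to below that level.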
